A study of Mus musculus with 2 samples.

Results

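Wells with at least 3000 CPM of Neurog3 (reads of a gene per 1000000 reads of the well) and less than 500 CPM of Tph1 were taken from 2 plates of single cells sorted from mouse small intestinal organoids, and they made up 86 of the 590 wells kept. Neurog3 encodes the basic helix-loop-helix factor that commits intestinal progenitors to the enteroendocrine lineage. It is expressed for a short time, and cells then pass through a stage with Neurod1, Pax4 and the chromogranins before they make a hormone. Tph1 encodes tryptophan hydroxylase, the first enzyme of serotonin synthesis in enterochromaffin cells, so the rule takes wells with a strong signal of the progenitor gene and little of the serotonin gene. Cells that enter this lineage from the crypt stop dividing, lower Notch target genes and separate from goblet and Paneth cells, which share the secretory progenitor.

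The cells came from organoids of jejunal and ileal epithelium with the genotype given as Neurog3-RFP hom, a red fluorescent reporter at Neurog3 that all cells of both plates carried, and were sorted as RFP-positive. The organoids of one plate had ISX-9, an isoxazole that drives neuronal differentiation of progenitor cells, for 48 h, and those of the other had DMSO, its solvent, for 48 h. The age and sex of the animals are not in the labels. The labels name no separate cultures, and each treatment has 1 library, so nothing below has a replicate check and no test was made. Intervals are exact 95% intervals of counting error (Poisson for CPM, Clopper-Pearson for shares of wells). A ratio is the log2 ratio of CPM + 5, with reads summed over the wells of a set, so that differences between low values come out too small.

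Members made up 65 of 290 kept wells of the ISX-9 plate (22.4%, 17.7 to 27.7) and 21 of 300 of the DMSO plate (7%, 4.39 to 10.5). Members were chosen by their Neurog3 and Tph1 levels, so these values are given as a description. Neurog3 had a lowest, median and highest value of 3113, 10299 and 30521 CPM per ISX-9 member and of 3054, 7454 and 23676 CPM per DMSO member. A Tph1 read was present in 11 of 65 ISX-9 members, at most 442 CPM, and in 6 of 21 DMSO members, at most 262 CPM. The wells nearest to the Neurog3 threshold had 3113 CPM inside and 2709 CPM outside on the ISX-9 plate, and 3054 CPM inside and 2661 CPM outside on the DMSO plate. On the side of Tph1 the nearest wells had 442 and 587 CPM on the ISX-9 plate and 262 and 502 CPM on the DMSO plate. The wells left out by Tph1 alone were few, 12 on the ISX-9 plate and 9 on the DMSO plate. Members were of ordinary depth: they held a median of 29461 nuclear reads and 3331 genes on the ISX-9 plate, against 19766 reads and 2725 genes in the other ISX-9 wells, and 23519 reads and 2657 genes on the DMSO plate, against 26407 reads and 2629 genes in the other DMSO wells. Mitochondrial reads had a median share of 21.3% in ISX-9 members and 23.9% in the other ISX-9 wells, and of 27.5% in DMSO members and 25.8% in the other DMSO wells. In all, ISX-9 members held 2275941 reads and DMSO members 870865, so that a gene without a read was below 1.32 CPM and 3.44 CPM, taking 3 counts as the floor.

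**Figure D1:**
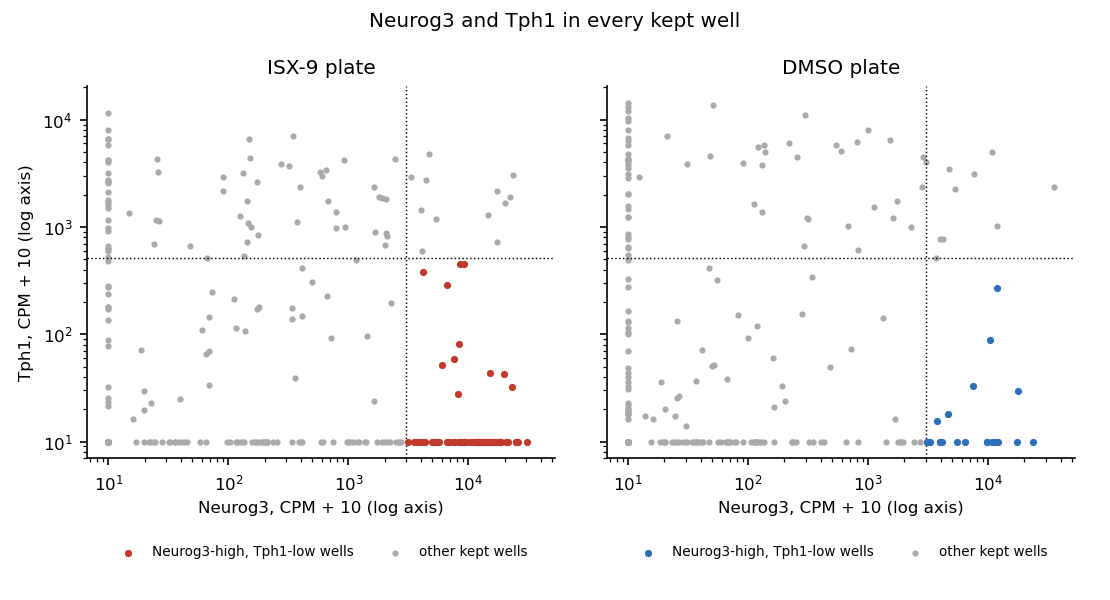
Neurog3 (x axis) against Tph1 (y axis) per kept well, as CPM + 10 on log axes, with the ISX-9 plate on the left and the DMSO plate on the right. The dotted lines are the thresholds of 3000 CPM for Neurog3 and 500 CPM for Tph1, and the coloured members sit in the lower right corner, 65 on the ISX-9 plate and 21 on the DMSO plate.

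Members were next described by 5 further markers of endocrine progenitors. These were chosen with earlier results of these data known, so they do not test the label. Neurod2, a neuronal relative of Neurod1, had 444 CPM in ISX-9 members (417 to 472), against 68.1 CPM in the other ISX-9 wells, and 420.3 CPM in DMSO members (378 to 466), against 31.9 CPM in the other DMSO wells (log2 ratios 2.62 and 3.53). It was read in 55 of 65 ISX-9 members and 16 of 21 DMSO members, and per well its lowest, median and highest values were 0, 413 and 1818 CPM in ISX-9 members and 0, 233 and 3875 CPM in DMSO members. The marker is therefore present in most members, with single members at 0 on both plates. With every well thinned to 2000 reads, Neurod2 was seen in 53.8% of members and 14.2% of other wells of the ISX-9 plate, and in 33.3% of members and 7.53% of other wells of the DMSO plate. Free RNA can place a read in a well whose cell does not express the gene. In wells with at least 3000 CPM of the mucin gene Muc2 and less than 100 CPM of Neurog3, taken as wells that should lack these genes, the thinned share was 5.26% of 19 wells on the ISX-9 plate and 0% of 28 on the DMSO plate, with median depths of 14967 and 42250 reads.

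Pax4, a paired homeodomain factor of early endocrine cells, had 496 CPM in ISX-9 members, against 145 CPM in the other ISX-9 wells (1.74), and was read in 40 of 65 members. In the DMSO plate it had 374 CPM in members, against 24.6 CPM in the other wells (3.68), but was read in only 8 of 21 members, and 1 of them held 62.9% of its member reads; without the member with the most reads in each plate the DMSO ratio was 2.36. With every well thinned, Pax4 was seen in 43.1% of ISX-9 members and 0% of the Muc2-high ISX-9 wells, and in 23.8% of DMSO members and 0% of the Muc2-high DMSO wells. Pax4 was thus seen in a part of the members and mostly in those of the ISX-9 plate. Rcor2, a corepressor that binds the LSD1 demethylase, had 198 CPM in ISX-9 members and 50.6 CPM in the other ISX-9 wells (1.87), and 103 CPM in DMSO members and 14.6 CPM in the other DMSO wells (2.47). Hes6, a factor that counters Hes1, had 194 CPM in ISX-9 members and 59.5 CPM in the other ISX-9 wells (1.63), and 124 CPM in DMSO members and 54.9 CPM in the other DMSO wells (1.11). Mfng, a fringe glycosyltransferase that modifies Notch receptors, was low on the whole DMSO plate and not in its members alone. It was read in 27 of 65 ISX-9 members, at 40.4 CPM against 13.4 CPM in the other ISX-9 wells (1.30). It was read in 2 of 21 DMSO members, at 2.3 CPM against 1.73 CPM in the other DMSO wells, both under 10 CPM. With 2 reads in DMSO members, the level in ISX-9 members was higher by 17.6-fold, 4.74 to 148. At least 3 of the 5 markers were read in 49 of 65 ISX-9 members and in 13 of 21 DMSO members, and none of them in 1 ISX-9 member and 2 DMSO members. The median number read on the ISX-9 plate was 4 in members, 2 in the other wells and 4 in the wells left out by Tph1 alone. On the DMSO plate it was 3, 1 and 2, so the markers are not particular to members. Most members thus carried several markers of the label, and Mfng was nearly absent on the DMSO plate.

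**Figure D2:**
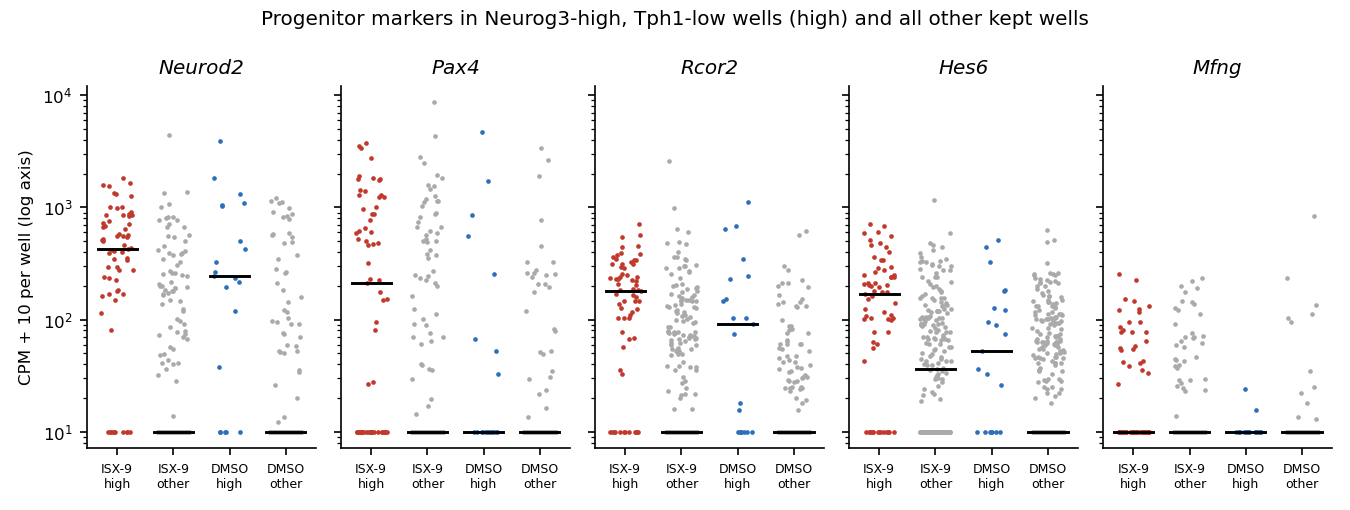
Level per well (CPM + 10, log axis) of 5 progenitor markers, 1 panel a gene, for ISX-9 members, other ISX-9 wells, DMSO members and other DMSO wells, with "high" standing for members. Each point is 1 well and the black bar is the median, which for Neurod2 is 413 CPM in ISX-9 members and 0 CPM in other ISX-9 wells.

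Over all genes with at least 10 CPM in either set, 704 of 9863 (7.14%) were at least 2-fold higher and 1240 (12.6%) at least 2-fold lower in ISX-9 members than in the other ISX-9 wells. In the DMSO plate 1159 of 9471 (12.2%) were at least 2-fold higher and 1262 (13.3%) at least 2-fold lower in members. The median ratio over all of them was -0.06 in the ISX-9 plate and 0.11 in the DMSO plate, and with 21 members the DMSO ratios are the less precise, so the DMSO counts are not read as numbers of genes that differ. Of 8949 genes measured in both plates, 278 were at least 2-fold higher in members of both plates, which is 278 of 543 higher on the ISX-9 plate and of 963 higher on the DMSO plate. A further 429 were at least 2-fold lower in both, of 1049 lower on the ISX-9 plate and 1180 lower on the DMSO plate. Opposite directions were found for 64 genes, 17 higher on the ISX-9 plate and 47 higher on the DMSO plate.

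Beside Neurog3 and Neurod2, the genes with the highest ratios on both plates were of several kinds, 10 genes in all. Epb4.2, which encodes the erythrocyte membrane protein 4.2, had 1015 CPM in ISX-9 members (974 to 1057), against 69.3 CPM in the other ISX-9 wells, and 504 CPM in DMSO members (458 to 554), against 23.3 CPM in the other DMSO wells, ratios of 3.78 and 4.17. It was read in 54 of 65 and 16 of 21 members. Its lowest, median and highest values per well were 0, 766 and 3663 CPM in ISX-9 members and 0, 521 and 2519 CPM in DMSO members, and the median was 0 CPM in the other wells of the ISX-9 plate and 0 CPM in those of the DMSO plate. The thinned share was 64.6% of ISX-9 members and 10.5% of the Muc2-high ISX-9 wells. This gene of the red cell membrane skeleton was thus read in more than 3 in 4 members of each plate. Ttll6, a tubulin polyglutamylase, had 448 CPM in ISX-9 members and 46.1 CPM in the other ISX-9 wells (3.15), and 313 CPM in DMSO members and 9 CPM in the other DMSO wells (4.51). Cdc14b, a dual-specificity phosphatase of the Cdc14 family, had 1416 CPM in ISX-9 members and 134 CPM in the other ISX-9 wells (3.35), and 474 CPM in DMSO members and 56.8 CPM in the other DMSO wells (2.95). Gadd45a, a gene of growth arrest and DNA damage, was read in 58 of 65 ISX-9 members and 15 of 21 DMSO members. It had 2752 CPM in ISX-9 members and 334 CPM in the other ISX-9 wells (3.02), and 1369.9 CPM in DMSO members and 178 CPM in the other DMSO wells (2.91). The lowest, median and highest values per member were 0, 2305 and 9533 CPM on the ISX-9 plate and 0, 389 and 5867 CPM on the DMSO plate, so members without a read occur on both plates. Miat, a long noncoding RNA known from neurons and heart, had 1590.1 CPM in ISX-9 members and 208 CPM in the other ISX-9 wells (2.90), and 429 CPM in DMSO members and 29.8 CPM in the other DMSO wells (3.64). Amotl2, an angiomotin-like protein at cell junctions, had ratios of 3.78 on the ISX-9 plate and 2.88 on the DMSO plate, with 871 and 449 CPM in the members. The remaining 4 genes of this group were Nptx1, a neuronal pentraxin (2.86 and 2.61), Dbn1, the actin-binding drebrin (2.54 and 3.0), Fgd6, an exchange factor for Cdc42 (2.49 and 2.45), and Cbfa2t2, a corepressor of the MTG family (2.89 and 2.45), with the ISX-9 plate given first. Nptx1 was read in 33 of 65 and 8 of 21 members and Dbn1 in 51 and 13.

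Since these genes were higher together with Neurog3, the 250 bases before the transcription start were searched for the E-boxes that Neurog3 and its relatives are known to bind. The promoters are from RefSeq (mouse build GRCm38.p6), and the motifs searched were CAGCTG, which reads the same on both strands, and CAGATG with its reverse complement CATCTG; they do not overlap each other. Of 16 markers and leading genes, 13 matched a RefSeq entry by symbol, with 15 promoters. A motif was found in 5 of these 15 (33.3%), against 8376 of all 32851 promoters in the table (25.5%). These 5 were the promoters of the markers Neurog3 and Neurod2, both promoters of the marker Hes6, and that of Epb4.2. None of the other leading genes that matched had a motif. At least 2 motifs were found in 1 of 15 (6.67%), against 4.13% of all promoters. The letters are a description and not evidence of binding. Of the 5 promoters with a motif, 3 are shown, with the motifs in capitals: that of Neurog3 itself (chr10:62132840-62133089, plus strand), that of the marker Neurod2 (chr11:98329646-98329895, minus strand) and that of Epb4.2 (chr2:121036878-121037127, minus strand, listed as Epb42), the only one of the 15 with more than 1 motif.
Neurog3: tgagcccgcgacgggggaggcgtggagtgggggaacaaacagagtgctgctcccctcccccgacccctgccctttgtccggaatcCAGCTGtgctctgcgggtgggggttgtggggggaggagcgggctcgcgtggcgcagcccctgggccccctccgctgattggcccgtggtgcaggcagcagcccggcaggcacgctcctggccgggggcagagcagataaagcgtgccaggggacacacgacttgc
Neurod2: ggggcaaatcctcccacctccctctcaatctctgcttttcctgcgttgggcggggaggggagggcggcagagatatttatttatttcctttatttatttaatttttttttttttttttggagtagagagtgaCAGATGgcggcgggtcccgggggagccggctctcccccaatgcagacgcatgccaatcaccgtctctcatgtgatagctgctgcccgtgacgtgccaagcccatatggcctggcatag
Epb4.2: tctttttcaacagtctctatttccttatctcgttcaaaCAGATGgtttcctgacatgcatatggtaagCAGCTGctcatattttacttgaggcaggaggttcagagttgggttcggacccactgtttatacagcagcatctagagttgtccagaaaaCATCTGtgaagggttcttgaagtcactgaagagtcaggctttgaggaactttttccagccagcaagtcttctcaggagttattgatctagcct

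Beside Tph1, which the rule used, the genes with the lowest ratios on both plates were Gcg, Tac1, Ptprn, Muc2, Agr2, Reg4 and Anxa2. Gcg, the proglucagon gene of L cells, had 19.8 CPM in ISX-9 members and 1079 CPM in the other ISX-9 wells (-5.45), and 14.9 CPM in DMSO members and 2350.1 CPM in the other DMSO wells (-6.88). No member reached 1000 CPM of it. Tac1, which encodes the precursor of substance P and marks enterochromaffin cells, had 104 CPM in ISX-9 members and 2347 CPM in the other ISX-9 wells (-4.43), and 65.5 CPM in DMSO members and 1556 CPM in the other DMSO wells (-4.47). With a Neurog3 threshold of 2000 CPM its DMSO ratio was -1.65. Ptprn, a membrane protein of secretory granules, had 7.91 CPM in ISX-9 members and 192 CPM in the other ISX-9 wells (-3.93). It had no read in the 21 DMSO members, against 268 CPM in the other DMSO wells, which were at least 77.7-fold higher than the floor of the members. Muc2, the main goblet cell mucin, had 53.6 CPM in ISX-9 members and 608 CPM in the other ISX-9 wells (-3.39), and 27.6 CPM in DMSO members and 1822 CPM in the other DMSO wells (-5.81). One ISX-9 member held 76.2% of the member reads, and without the member with the most reads the ISX-9 ratio was -5.09. Agr2, a disulfide isomerase of mucus-secreting cells, had ratios of -3.98 on the ISX-9 plate and -5.12 on the DMSO plate. Reg4, a lectin of secretory cells, had -3.14 and -4.51, and Anxa2, a membrane-binding annexin, had -2.47 and -4.23. Of these genes, Tac1 and Reg4 are on the enterochromaffin list, Gcg on the hormone list and Muc2 and Agr2 on the goblet list used below, and Ptprn and Anxa2 on no list.

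**Figure D3:**
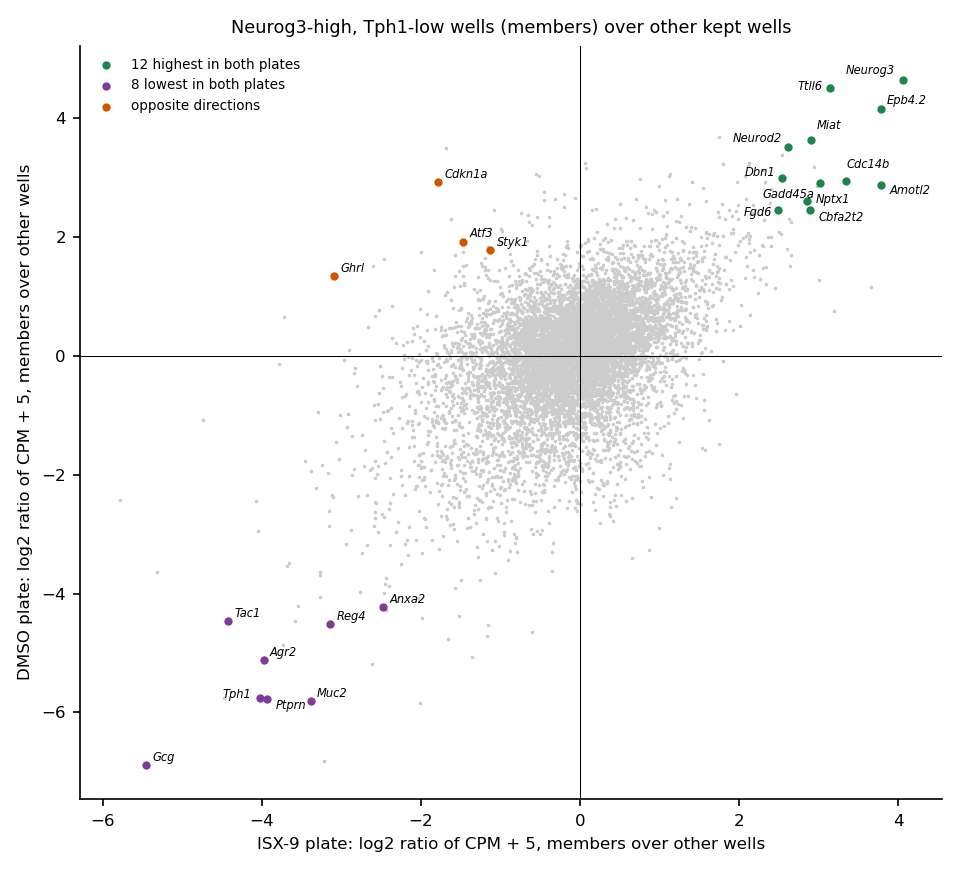
Log2 ratio of CPM + 5, members over other wells, on the ISX-9 plate (x axis) and on the DMSO plate (y axis), for each gene with at least 10 CPM in either set on both plates, with the named genes labelled. Genes at the upper right were higher in members of both plates, such as Epb4.2 (3.78 and 4.17), and genes at the lower left lower in both, such as Gcg (-5.45 and -6.88).

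The early endocrine transcription factors were higher in members almost as a whole. Of 14 measured, 11 were at least 2-fold higher and 1 lower in ISX-9 members (median ratio 1.56, against -0.06 over all genes), and 12 were higher and 1 lower in DMSO members (median 1.62, against 0.11). Over all genes, 7.14% were higher and 12.6% lower in ISX-9 members, and 12.2% and 13.3% in DMSO members. These shares stand beside every list count of members over other wells here and below, and the DMSO list counts are a description only. The 1 early endocrine factor lower on both plates was Pax6, a factor of differentiating endocrine cells (-1.46 on the ISX-9 plate and -1.52 on the DMSO plate). Insm1, a zinc finger factor that acts soon after Neurog3, had 1269.8 CPM in ISX-9 members and 197 CPM in the other ISX-9 wells (2.66), and 442 CPM in DMSO members and 132 CPM in the other DMSO wells (1.70). Sox4, an HMG-box factor of early endocrine differentiation, was widespread: it was read in 64 of 65 ISX-9 members and all 21 DMSO members. It had 1428 CPM in ISX-9 members and 227 CPM in the other ISX-9 wells (2.63), and 1126 CPM in DMSO members and 224 CPM in the other DMSO wells (2.30). Nkx2-2, a homeodomain factor needed for several endocrine cell types, had 653 CPM in ISX-9 members and 164 CPM in the other ISX-9 wells (1.96), and 723 CPM in DMSO members and 129 CPM in the other DMSO wells (2.44). The later factors of single endocrine cell types were mixed. Of 6 measured on each plate, 1 was higher and 3 lower in ISX-9 members (median -1.13), and 2 were higher and 2 lower in DMSO members (median -0.27). The ETS factor Etv1 had 4.83 CPM in ISX-9 members and 83.5 CPM in the other ISX-9 wells (-3.17), and 23 CPM in DMSO members and 104 CPM in the other DMSO wells (-1.96). Lmx1a, a factor of enterochromaffin cells, had 11 CPM in ISX-9 members and 42.6 CPM in the other ISX-9 wells, and no read in DMSO members against 70.0 CPM in the other DMSO wells, which were at least 20.3-fold higher. The homeodomain gene Onecut3 was at -2.85 on the ISX-9 plate. The 1 later factor higher in ISX-9 members, the LIM-homeodomain gene Isl1 (1.75), had 98.1% of its member reads in 1 well, and without that well its ratio was -0.65.

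The Notch pathway holds a crypt cell between division and commitment: a cell that presents Delta ligands turns on Hes1 in its neighbours, and Hes1 represses Atoh1 and Neurog3. Hes1 had 24.2 CPM in ISX-9 members and 281 CPM in the other ISX-9 wells (-3.29), and was read in 12 of 65 members. On the DMSO plate it had 167 CPM in members and 324 CPM in the other wells (-0.94), was read in 4 of 21 members, and 1 member held 42.8% of the member reads. On both plates, then, about 4 in 5 members had no Hes1 read. Wells without reads of such genes were common outside the members too. None of the 9 Notch receptor and target genes was read in 34 of 65 ISX-9 members and 108 of 225 other ISX-9 wells. On the DMSO plate this held for 12 of 21 members and 150 of 279 other wells. Of the Notch receptors and targets, 0 of 5 were higher and 3 lower in ISX-9 members (median -1.06), the others lower being Nrarp, a feedback target (-1.18), and the receptor gene Notch2 (-1.06). In DMSO members 1 of 3 was higher and 0 lower (median 0.54). Notch1 itself had 39.1 CPM in ISX-9 members and 23.6 CPM in the other ISX-9 wells (0.62). Of the ligands and modifiers, 3 of 10 were higher and 1 lower in ISX-9 members (median 0.35), and 3 of 8 were higher and 1 lower in DMSO members (median -0.07). Numbl, a relative of the Notch inhibitor Numb, had 71.6 CPM in ISX-9 members and 7.77 CPM in the other ISX-9 wells (2.59), and was read in 34 of 65 ISX-9 members but only 2 of 21 DMSO members, at 3.44 CPM. The ligand gene Dll1 had 96.2 CPM in ISX-9 members and 36 CPM in the other ISX-9 wells (1.30), and 24.1 CPM in DMSO members and 41.6 CPM in the other DMSO wells (-0.68). The fringe gene Lfng was at 1.5 and the ligand gene Jag2, with 2 reads in members (lower by 12.7-fold, 3.42 to 106), at -1.46 on the ISX-9 plate.

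Atoh1, the factor that starts all secretory lineages, had no read in any of the 65 ISX-9 members or the 21 DMSO members. The other wells had 61.5 CPM on the ISX-9 plate and 141 CPM on the DMSO plate, at least 46.7-fold and 40.9-fold higher than the floors of the members. With 3 counts taken as the limit, a count of 0 allows up to 4.62% of ISX-9 members and 14.3% of DMSO members with a read. This approximate limit is not the exact interval used for other shares. It limits wells with a read at these depths and not wells that express the gene. Of the secretory commitment factors, 1 of 8 was higher and 5 lower in ISX-9 members (median -1.10), and 0 of 7 were higher and 5 lower in DMSO members (median -1.84). Pou2f3, the factor of tuft cells, also had no read in members, against 16.7 CPM in the other ISX-9 wells (at least 12.7-fold higher there). Gfi1, a transcriptional repressor needed for goblet and Paneth cells, was at -1.25 and the forkhead gene Foxa1 at -1.20 on the ISX-9 plate, and at -2.42 and -1.24 on the DMSO plate.

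Most cycling genes were lower in ISX-9 members and fewer in DMSO members, while several genes of cell cycle exit were higher on both plates. Of the cycling genes, 0 of 14 were higher and 11 lower in ISX-9 members (median -1.40). In DMSO members 0 of 13 were at least 2-fold higher and 6 lower (median -0.45), and 4 of the 13 had a ratio above 0. Mki67, the proliferation marker Ki-67, had 6.59 CPM in ISX-9 members and 107 CPM in the other ISX-9 wells (-3.27), and 3.44 CPM in DMSO members, 3 reads, and 100.1 CPM in the other DMSO wells (-3.64; lower in members by 29.1-fold, 9.92 to 141). Rrm2, the ribonucleotide reductase subunit of S phase, had 36 CPM in ISX-9 members and 247 CPM in the other ISX-9 wells (-2.62). In DMSO members it had no read, and the other DMSO wells, at 176 CPM, were at least 51.2-fold higher. Some members still carried mitotic transcripts: at least 2 of Mki67, Top2a, Ccnb1 and Cdk1 were read in 7 of 65 ISX-9 members, against 49 of 225 other ISX-9 wells, and in 3 of 21 DMSO members, against 70 of 279 other DMSO wells. Of the genes of cell cycle exit, 4 of 9 were higher and 1 lower in ISX-9 members (median 0.94), and 6 were higher and 1 lower in DMSO members (median 1.60). With Gadd45a, these included its relative Gadd45g (1.74 on the ISX-9 plate and 1.43 on the DMSO plate) and the p53-induced Trp53inp1 (1.53 and 1.60). The 1 gene lower in ISX-9 members was Cdkn1a, which encodes the cell cycle inhibitor p21 (-1.78), and it was higher in DMSO members (2.92). That DMSO value rested on 3 wells high in Ghrl, described below: in the other 18 DMSO members Cdkn1a had 132 CPM, against 315 CPM in the other DMSO wells, a ratio of -1.22.

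In pooled reads, genes of hormone-producing cells were mostly lower in members than in the other wells, some of which reached very high levels. Of the peptide hormones, 0 of 6 were higher and 6 lower in ISX-9 members (median -2.93), and 1 of 7 was higher and 6 lower in DMSO members (median -3.97). The neurotensin gene Nts had 1.32 CPM in ISX-9 members, 3 reads, and 344 CPM in the other ISX-9 wells (-5.79; lower in members by 261-fold, 89.3 to 1268), and the peptide YY gene Pyy 2.2 and 44 CPM (-2.77). The 1 hormone gene higher in DMSO members was Ghrl (1.35), and 3 wells held 99.7% of its reads. In the other 18 DMSO members it had 6.6 CPM, against 576 CPM in the other DMSO wells, a ratio of -5.65. The typical well differed less: the summed peptide hormone level had a median of 199 CPM per ISX-9 member, against 280 CPM per other ISX-9 well, and of 219 CPM per DMSO member, against 214 CPM per other DMSO well. A part of the members did carry hormone transcripts. At least 1 peptide hormone gene reached 1000 CPM in 14 of 65 ISX-9 members and 4 of 21 DMSO members. On the ISX-9 plate this was the cholecystokinin gene Cck, which was at least 1000 CPM in 14 of 65 members there and in 1 of 21 DMSO members. Cck, named after its values were seen, had 539 CPM in ISX-9 members and 1708 CPM in the other ISX-9 wells (-1.66). Of the enterochromaffin genes, which include Tph1, 0 of 6 were higher and 4 lower in ISX-9 members (median -2.35), and 1 of 8 was higher and 5 lower in DMSO members (median -3.15). Gch1, which makes the cofactor of Tph1, was at -1.55 on the ISX-9 plate. Slc18a1, the monoamine transporter of granules and also on that list, was named after its values were seen: it was read in 50 of 65 ISX-9 members, at 623 CPM against 531 CPM in the other ISX-9 wells (0.23), and in 15 of 21 DMSO members, at 180.3 CPM against 285 CPM (-0.64). Of the granule and exocytosis genes, 1 of 15 was higher and 10 lower in ISX-9 members (median -1.72), and 4 of 15 were higher and 8 lower in DMSO members (median -1.27). Per well, their summed level had a median of 3123 CPM in ISX-9 members and 10492 CPM in the other ISX-9 wells, but of 2396 CPM in DMSO members and 1485 CPM in the other DMSO wells, so the typical DMSO member was above the typical other well. Vgf, a granule peptide precursor, had 2.64 CPM in ISX-9 members and 301 CPM in the other ISX-9 wells (-5.32). The chromogranin gene Chga had 58 and 1056 CPM (-4.07), the secretogranin gene Scg2, with 1 read in members, was at -3.68 (lower by 147-fold, 26.3 to 5822) and Rab3b, a small GTPase of exocytosis with 2 reads in members, at -3.15 (lower by 53.9-fold, 14.8 to 446). The 1 gene of this list higher in ISX-9 members was Cplx2, a complexin of the fusion machinery, named after its values were seen. It had 938 CPM in ISX-9 members and 402 CPM in the other ISX-9 wells (1.21), and 730.3 CPM in DMSO members and 181 CPM in the other DMSO wells (1.98).

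Markers of the other epithelial cell types that the sort could hold were next counted. Of the goblet genes, 0 of 7 were higher and 5 lower in ISX-9 members (median -2.01), and 0 were higher and 6 lower in DMSO members (median -5.12). Their summed level had a median of 2411 CPM per ISX-9 member and 784 CPM per DMSO member, against 29164 and 27358 CPM in the Muc2-high wells of the same plates. Over all other wells that median was 1189 CPM on the ISX-9 plate and 2575 CPM on the DMSO plate, so the typical ISX-9 member was above the typical other ISX-9 well, and the typical DMSO member below the typical other DMSO well. The lectin gene Zg16 was at -3.21 on the ISX-9 plate and -6.82 on the DMSO plate, and the chloride channel regulator Clca3 at -2.01 and -5.85, the last from 2 reads in DMSO members (lower by 181-fold, 50.2 to 1497). Tff3, a trefoil peptide gene of goblet cells, was the exception and was named after its values were seen: it was read in 64 of 65 ISX-9 members and 18 of 21 DMSO members. It had 2034 CPM in ISX-9 members and 2153 CPM in the other ISX-9 wells (-0.08), and 1531 CPM in DMSO members and 2867 CPM in the other DMSO wells (-0.90). Of the Paneth genes, 0 of 5 were higher and 5 lower in ISX-9 members (median -1.63), and 0 of 7 were higher and 5 lower in DMSO members (median -1.74). The intelectin gene Itln1 had 373 CPM in ISX-9 members, 69.3% of it in 1 well, against 1165 CPM in the other ISX-9 wells (-1.63), the defensin gene Defa24 was at -1.95 and the matrix metalloproteinase gene Mmp7 at -1.28. How the counting treated reads that match several gene copies is not stated, and values of Defa24, Itln1, Lyz1, Reg3g and Clca3 are uncertain between copies. Of the stem cell genes, 0 of 6 were higher and 3 lower in ISX-9 members (median -1.45), with the crypt factor Ascl2 at -2.27, the ion transporter Slc12a2 at -1.92, the ubiquitin ligase Rnf43 at -2.04 and the matricellular Smoc2 at -0.98. In DMSO members 0 of 7 were higher and 1 was lower (median -0.08). Of the enterocyte genes, 0 of 7 were higher and 5 lower in ISX-9 members (median -1.41), led by the keratin Krt20 (-4.73) and with the phosphatase Alpi without a read in members (at least 9.32-fold higher in the other ISX-9 wells), the glucose transporter Slc5a1 at -1.49 and the fatty acid-binding Fabp2 at -1.41, and 0 of 6 were higher and 2 lower in DMSO members (median 0.06). All 3 measured tuft genes were lower on both plates (medians -2.86 and -2.0), and the kinase gene Dclk1 had no read in ISX-9 members (at least 34.1-fold higher in the other ISX-9 wells). The channel gene Trpm5 had 1 read there (lower by 78.6-fold, 14 to 3114). The summed tuft level was 0 in 60 of 65 ISX-9 members and 20 of 21 DMSO members. Immune and mesenchymal genes were at 0 in 61 of 65 and 21 of 21, and the 1 such gene measured, the endothelial Pecam1, had 32.5 CPM in ISX-9 members and 50.5 CPM in the other ISX-9 wells. Of a list of neuron-type genes, 3 of 11 were higher and 0 lower in ISX-9 members (median 0.48), and 4 of 8 were higher and 2 lower in DMSO members (median 0.77). The tubulin genes Tubb2b and Tubb3 were at 2.23 and 2.07 and the potassium channel Kcnb2 at 1.57 on the ISX-9 plate. Of the stress genes, 0 of 10 were higher and 3 lower in ISX-9 members (median -0.37), and 2 and 2 of 10 in DMSO members (median 0.03). Chac1, a glutathione-degrading enzyme of the unfolded protein response, was at -1.65, the immediate early gene Fos at -1.5 and the heat shock gene Hspa1b at -0.54 on the ISX-9 plate. Atf3, a factor induced by stress, was at -1.47 on the ISX-9 plate, with 1 read in members (lower by 22.9-fold, 4.02 to 915). On the DMSO plate it was at 1.93, and at 0.56 without the member with the most reads.

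ISX-9 members were then set against DMSO members, which share the Neurog3 rule and differ in the treatment of their plate, so that plate and treatment cannot be told apart. Of 9546 genes, 1496 (15.7%) were at least 2-fold higher and 1061 (11.1%) at least 2-fold lower in ISX-9 members, with a median ratio of 0.03 over all genes. Fscn1, the gene of fascin, a bundler of actin filaments, had 343 CPM in ISX-9 members (319 to 368), where it was read in 42 of 65 wells, and no read in the 21 DMSO members. The ISX-9 level was at least 99.5-fold above the DMSO floor of 3 counts. Per ISX-9 member its lowest, median and highest values were 0, 144 and 6329 CPM, so about 1 in 3 ISX-9 members lacked a read too. Megf11, a transmembrane protein with EGF repeats, was read in 43 of 65 ISX-9 members and 2 of 21 DMSO members, at 213 CPM against 5.74 CPM (4.34). Rbfox3, the neuronal splicing factor NeuN, had 156 CPM in ISX-9 members and 3.44 CPM in DMSO members (4.25), and S100a6, a calcium-binding protein, 116 and 1.15 CPM (4.29). DMSO members held 3 reads of Rbfox3 and 1 of S100a6, and the ISX-9 level was higher by 45.3-fold, 15.4 to 221 for Rbfox3 and by 101-fold, 17.9 to 3989.8 for S100a6, in counting error. Further genes without a read in DMSO members were the coronin Coro2b (at least 48.2-fold higher in ISX-9 members), the cyclophilin Ppic (at least 36.2-fold), the mTORC2 subunit Prr5 (at least 34.1-fold), the growth factor gene Igf2 (at least 29.2-fold) and Rassf4, a Ras association domain protein (at least 25.6-fold). They were read in 19, 26, 19, 24 and 23 of 65 ISX-9 members. The antimicrobial lectin gene Reg3g was also without a read in DMSO members and at 170.5 CPM in ISX-9 members, at least 49.5-fold higher, but 1 well held 44.3% of these reads. The log2 ratio, which here depends on the 5 CPM added, was 5.13, and 4.36 without that well. Ly6a, the surface protein Sca-1, had 359 CPM in ISX-9 members and 6.89 CPM in DMSO members (4.94), and as a mean over wells its ratio was 2.57. The microtubule-associated Map1s had 295 CPM in ISX-9 members and 10.3 CPM in DMSO members (4.29). Several of these genes are high in the ISX-9 plate as a whole and not in members alone: of 12 genes listed for having the highest ratios between the whole plates in these same data, 4 were at least 2-fold higher and 4 at least 2-fold lower in ISX-9 members than in the other ISX-9 wells (median -0.42). Between the members of the plates, 11 of 11 were higher in ISX-9 members (median 3.97), a list whose direction was fixed by its choice. Hpca, a neuronal calcium sensor on that list, had 218 CPM in ISX-9 members and 107 CPM in the other ISX-9 wells, and 9.19 CPM in DMSO members and 4.97 CPM in the other DMSO wells. The metalloproteinase Mmp2 ran the other way, with 8.79 CPM in ISX-9 members and 71.2 CPM in the other ISX-9 wells (-2.47). Neuron-type genes, with Hpca among them too, were at least 2-fold higher in ISX-9 than in DMSO members for 7 of 11 and lower for 0 (median 1.68). The plates differed in this list outside the members as well. Its summed level per well had medians of 1314 CPM in ISX-9 members and 327 CPM in DMSO members. In the other wells the medians were 600 CPM on the ISX-9 plate and 49.7 CPM on the DMSO plate. Of the early endocrine factors, 1 of 14 was higher and 1 lower (median 0.38). Stem cell genes were higher for 0 of 7 and lower for 5 (median -1.35), and stress genes higher for 1 of 10 and lower for 5 (median -0.95).

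**Figure D4:**
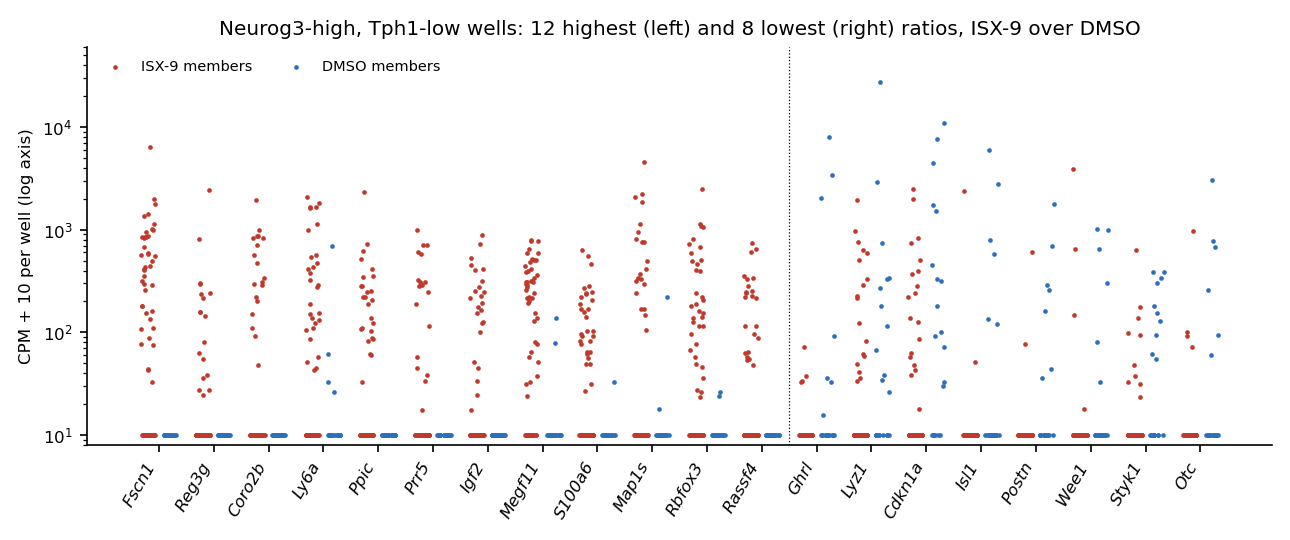
Level per member (CPM + 10, log axis) of genes that differed between ISX-9 members and DMSO members, 1 point a well, with ISX-9 members left of DMSO members for each gene and wells without a read at the bottom; the dotted line parts the 12 highest ratios from the 8 lowest. Fscn1 and Megf11 were read in 42 and 43 of 65 ISX-9 members and in 0 and 2 of 21 DMSO members, while the high values of Ghrl come from 3 DMSO members and that of Lyz1 from 1.

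Several of the genes lower in ISX-9 members rested on few DMSO wells. Ghrl, the ghrelin gene of X cells, had 5.27 CPM in ISX-9 members, at most 62.3 CPM in a well, and 1478 CPM in DMSO members (-7.17). Of the 21 DMSO members, 3 had 2031, 3389 and 7944 CPM of Ghrl, with 4118, 6361 and 4581 CPM of Neurog3, and they held 99.7% of its member reads. The same 3 wells held 94.5% of the DMSO member reads of Isl1 and 96.2% of those of Cdkn1a. They also held 99.7% of those of Scgn, the gene of the calcium sensor secretagogin, which was named after its values were seen. Isl1 had 23.7 CPM in ISX-9 members and 541 CPM in DMSO members (-4.25), and Cdkn1a 110.3 and 2422 CPM (-4.40). One other DMSO member had 5946 CPM of Isl1. Against the 18 DMSO members without these 3 wells, the ratios were -0.18 for Ghrl, -0.74 for Isl1, -0.25 for Cdkn1a and 1.02 for Scgn. Without them, 1937 genes were higher and 1101 lower in ISX-9 members. The lysozyme gene Lyz1 of Paneth cells had 58.9 CPM in ISX-9 members and 1775 CPM in DMSO members (-4.80), and 1 DMSO member held 88.2% of the DMSO reads. That well had 27081 CPM of Lyz1, 22455 CPM of Itln1 and 8259 CPM of the angiogenin gene Ang4 beside 17611 CPM of Neurog3. Without the well with the most reads on each plate the Lyz1 ratio was -2.17. Doublets were not called, and whether such wells held 1 cell or more was not tested. The other genes lower in ISX-9 members were Postn, which encodes the matrix protein periostin (-3.91), Wee1, a kinase that delays mitosis (-3.52), the kinase-like Styk1 (-3.21) and Otc, a urea cycle enzyme (-2.92). Against the 18 DMSO members without the 3 Ghrl-high wells, these ratios were -2.63, -3.85, -2.84 and -2.39. In DMSO members they were read in 7, 6, 10 and 6 of 21 wells. Wee1 had -0.94 as a mean over wells, and Otc had 1.42, the other direction, with a Neurog3 threshold of 5000 CPM.

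The sets most alike are the members and the wells that reached both thresholds, at least 3000 CPM of Neurog3 and 500 CPM of Tph1. Of 9617 genes on the ISX-9 plate, 1898 (19.7%) were at least 2-fold higher and 1465 (15.2%) at least 2-fold lower in the 65 members than in the 12 wells with both (median ratio 0.06). On the DMSO plate the 9 wells with both held few reads, and 2929 of 9409 genes (31.1%) were higher and 1970 (20.9%) lower in members (median 0.20), so only the ISX-9 plate is described by gene; the genes were named after their values were seen unless named above. The early endocrine factors stood about level, with 2 of 14 higher and 1 lower in members (median 0.16), while the later factors were higher for 1 of 6 and lower for 5 (median -2.22). Fev, the factor of the stage between progenitor and mature cell, had 496 CPM in members and 1850.3 CPM in wells with both (-1.89), and Lmx1a 11 and 89 CPM (-2.56). Pax4 had 496 CPM in members and 1102 CPM in wells with both (-1.14). Granule genes were higher for 0 and lower for 7 of 13 (median -1.58), and the chromogranin Chgb had 3499 CPM in members and 19312 CPM in wells with both (-2.46). Enterochromaffin genes, Tph1 among them, were lower for 4 of 6 (median -1.91), with Tac1 at 104 CPM in members and 1525 CPM in wells with both. In pooled reads, genes of the other secretory types and some of the leading genes were higher in members. Goblet genes were at least 2-fold higher for 5 of 6 (median 1.75) and Paneth genes for 5 of 5 (median 1.66). Of the Paneth genes, Defa24 had 1 read in wells with both (higher in members by 4.26-fold, 0.703 to 175). Lyz1 had 3 reads there (higher in members by 7.05-fold, 2.36 to 34.6), and 1 well held most of the Itln1 reads of members, as given above. Per well, the summed goblet level had medians of 2411 CPM in members and 818 CPM in wells with both, and the Paneth level 314 and 187 CPM. On the DMSO plate the goblet medians were 784 and 451 CPM, and the Paneth medians ran the other way, 517 and 839 CPM. Tff3 had 2034 CPM in members and 654 CPM in wells with both (1.63), and Dll1 96.2 and 2.78 CPM (3.70; higher by 34.6-fold, 6.14 to 1372, from 1 read in wells with both). Cdc14b (2.73), Amotl2 (2.91) and Cbfa2t2 (2.52) were likewise higher in members, while Neurog3 itself had a median of 10299 CPM per member and 10016 CPM per well with both.

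Members also differed among themselves. They were split by Neurod1, the factor that follows Neurog3 in this lineage, into wells without a read, wells below 1000 CPM and wells with at least 1000 CPM: 16, 21 and 28 of the 65 ISX-9 members and 5, 7 and 9 of the 21 DMSO members. Where 3 values are given they run in that order. The split and the genes named for it were chosen after the values were seen, and the differences are given as a description. Depth was alike on the ISX-9 plate, with medians of 33490, 25296 and 31380 reads, and not on the DMSO plate, with 15482, 23519 and 38211 reads. Neurog3 had 14636 CPM in the ISX-9 wells high in Neurod1 and 8266 CPM in those without it, and 7427 and 12713 CPM in the DMSO wells. On the ISX-9 plate 1937 of 9360 genes (20.7%) were at least 2-fold higher and 1352 (14.4%) at least 2-fold lower in wells high in Neurod1 than in wells without it (median 0.10). On the DMSO plate 3736 of 8375 (44.6%) were higher and 1705 (20.4%) lower (median 0.63), where the 5 wells without Neurod1 held 125694 reads in all and a gene without a read there was below 23.9 CPM. Runx1t1, a corepressor of the MTG family, had 3.61, 644 and 1488 CPM on the ISX-9 plate (7.44, high over none), and was read in 2 of 16, 13 of 21 and 24 of 28 wells. The wells without Neurod1 held 2 reads of it, which puts the wells high in Neurod1 higher by 413-fold, 114 to 3409.9 in counting error. On the DMSO plate it had 103, 279 and 1265 CPM (3.55). Runx1t1 thus followed Neurod1 on both plates. Fev had 14.4, 217 and 891 CPM on the ISX-9 plate (5.53), and on the DMSO plate no read in wells without Neurod1 and 228 and 661 CPM in the others, which puts the wells high in Neurod1 at least 27.7-fold higher. Rfx6, a winged helix factor needed for endocrine differentiation, had 30.6, 238 and 697 CPM on the ISX-9 plate (4.30) and 39.8, 225 and 387 CPM on the DMSO plate (3.13). Chgb had 173, 4263 and 4740.4 CPM on the ISX-9 plate (4.74). In the wells below 1000 CPM of Neurod1, 1 well held 64.8% of the Chgb reads, and the medians per well were 133, 136 and 2068 CPM, so the typical well of that set was close to those without Neurod1. The same order held for Cplx2 (297, 837 and 1315 CPM) and for Hpca (45.1, 169.7 and 331 CPM). The sucrase-isomaltase gene Sis, known from enterocytes, was at 3.61, 419 and 950.1 CPM on the ISX-9 plate (6.79; 263-fold, 72.8 to 2178, from 2 reads in wells without Neurod1). On the DMSO plate it had no read, 409 and 565 CPM, at least 23.7-fold higher in wells high in Neurod1 than the floor of those without. Of the lists on the ISX-9 plate, granule genes were higher for 9 of 10 (median 2.48, or 2.36 with the gene at 0 in wells without Neurod1 put at its bound), later endocrine factors for 5 of 5 (3.22, or 2.94 with 3 genes at their bounds) and neuron-type genes for 8 of 11 (2.09, or 2.04 with 2 at their bounds). In the other direction, Spink4, a peptide of goblet cells, had 654, 183 and 13.5 CPM on the ISX-9 plate (-5.15) and 2785, 76.7 and 5.65 CPM on the DMSO plate (-8.03), where the wells high in Neurod1 held 2 reads of it (lower by 493-fold, 135 to 4087). It was read in 13 of the 16 ISX-9 wells without Neurod1, 1 of which held 58.7% of their reads. Tff3 had 3878, 2114 and 1066 CPM on the ISX-9 plate (-1.86) and 6579, 857 and 483 CPM on the DMSO plate (-3.75). Spink4 and Tff3 were thus highest in the members without Neurod1 on both plates. Fcgbp, a mucus protein, had 712, 491 and 70.4 CPM on the ISX-9 plate (-3.25), and Dll1 238, 68.5 and 40.6 CPM (-2.41). Goblet genes as a list were lower for 5 of 6 on the ISX-9 plate (median -3.31) and 4 of 6 on the DMSO plate, and Paneth genes for 4 of 5 (median -2.53) and 5 of 5. Several of these values rest on single wells. In the ISX-9 wells without Neurod1, the top well held 97.9% of the Muc2 and 83.9% of the Agr2 reads. For the Paneth genes Defa24, Itln1, Lyz1 and Mmp7 it held 94.7%, 88.2%, 63.5% and 57.8%. The DMSO wells without Neurod1 included the well with 27081 CPM of Lyz1 described above. Of the early endocrine factors without Neurod1, 6 of 13 were higher and 1 lower in the wells high in Neurod1 on the ISX-9 plate (median 0.91, against 0.10 over all genes), among them the zinc finger factor Myt1 (3.06), the RNA-binding Celf3 (2.62) and the zinc finger factor St18 (1.61). On the DMSO plate 8 of 13 were higher and 3 lower (median 1.60, or 0.51 with the 2 genes at 0 in 1 set put at their bounds). The markers Pax4 and Neurod2 were at 1.59 and 1.21 on the ISX-9 plate and at 4.63 and -1.41 on the DMSO plate. Smaller differences on the ISX-9 plate were those of 3 other genes: Insm1 had 1109, 1547 and 1197 CPM, Nkx2-2 645, 638 and 666 CPM and Hes6 195, 212 and 184 CPM. Of the leading genes, Epb4.2 and Ttll6 had ratios of 0.62 and 0.39 there and -1.80 and -0.60 on the DMSO plate.

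**Figure D5:**
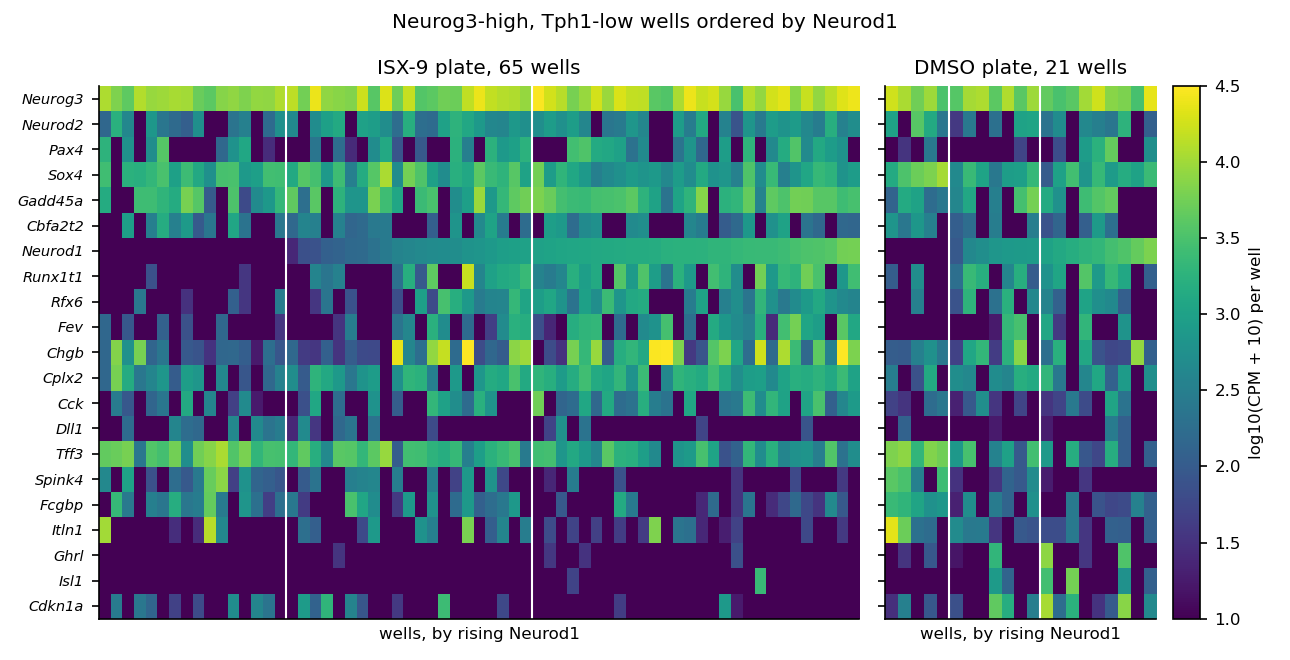
Levels of named genes (rows, colour as log10 of CPM + 10) in each member (columns), ordered by Neurod1 within the ISX-9 plate on the left and the DMSO plate on the right. The white lines separate members without a Neurod1 read, below 1000 CPM and at least 1000 CPM (16, 21 and 28 ISX-9 members, and 5, 7 and 9 DMSO members), and Runx1t1, Fev and Rfx6 have no read in most wells without Neurod1, where Tff3 is read in every well.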

How the data were processed

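SORT-seq, a plate method in which single cells are sorted into wells and copied with well-barcoded primers following CEL-Seq2, gave 1 library per treatment. The authors deposited a table of read counts per gene and well, 384 wells a plate, with the same 384 well barcodes in both. The counts are reads and not molecules, because the molecular barcode has 4 bases (256 combinations), so intervals and floors cover counting error only. Per the submitters' processing notes the tools and builds named are BWA, without a version, and hg19; the rows carry mouse symbols, and the gene models and counting rule are not given in the sources used here.

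Spike-in and mitochondrial rows were left out, and Rn45s stayed in the totals. Wells with at least 2000 reads and 500 genes were kept. CPM were computed per well and, for a set, from summed reads. Ratios are log2 of CPM + 5 among genes with at least 10 CPM in either set, and a gene was counted at 2-fold. With 1 library a treatment and members chosen by 2 of the same genes, tests and p-values were not computed. Scripts were tested on simulated data. Python 3.11.15, numpy 2.4.6, pandas 2.3.3, scipy 1.17.1 and matplotlib 3.10.9 were used.

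Named genes were the markers and Tph1, the 12 highest and 8 lowest ratios of members over other wells (by the plate with the smaller ratio, read in at least 25% of wells and at 20 CPM or more in both plates), the 12 highest and 8 lowest of ISX-9 over DMSO members, and up to 4 of each of 20 gene lists; ribosomal protein, mitochondrial and predicted genes were left out. Members and lists were chosen with earlier results of these data known. Genes without a row (Sst, Vip, Gnat3 and Sh2d6) were not analysed here. Alternatives changed the thresholds, the minimum depth, the pseudocount, the scaling, the level filter and the way wells were combined, thinned each well to 2000 reads, or left out the deepest 5% of wells, Rn45s or the member with the most reads of a gene.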

Additional observations from a re-analysis of the deposited data

Results flagged for a closer look

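Of the genes named by rule, 4 were at least 2-fold apart from the other wells in opposite directions on the 2 plates, and these differences between the plates were not tested. Ghrl was at -3.09 in ISX-9 members over the other ISX-9 wells and at 1.35 in DMSO members over the other DMSO wells. Cdkn1a was at -1.78 on the ISX-9 plate and 2.92 on the DMSO plate. Styk1 was at -1.13 and 1.78, with 10 of 65 ISX-9 members and 10 of 21 DMSO members read. Atf3 was at -1.47 and 1.93, and 1 of its 2 DMSO members with a read held 72.6% of the member reads. The 3 DMSO members with at least 1000 CPM of Ghrl held 99.7% of the Ghrl and 96.2% of the Cdkn1a reads of DMSO members, and 46.8% of those of Styk1. Without these 3 wells the DMSO ratio was -5.65 for Ghrl and -1.22 for Cdkn1a, the same direction as on the ISX-9 plate. It was 1.41 for Styk1 and 1.98 for Atf3. Of the other 18 DMSO members, only 1 had an Atf3 read. Without the member with the most reads of Atf3, its DMSO ratio was 0.56, under 2-fold.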

How the results depend on the processing

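No paired analysis was possible because each treatment has 1 library, and for the same reason no replicate could be left out. The share of members ranged from 19.3% to 24.8% of ISX-9 wells and from 4.33% to 7.67% of DMSO wells over the alternatives, with the 4.33% at a Neurog3 threshold of 5000 CPM. Counts of genes past 2-fold moved more. At 5000 CPM of Neurog3, 2727 genes were lower in DMSO members than in the other wells and 2647 higher in ISX-9 than in DMSO members. With wells thinned to 2000 reads, 1443 were higher and 2148 lower in ISX-9 members, 2123 higher and 3197 lower in DMSO members, 3824 higher in ISX-9 members than in wells with both genes, and 3241 higher and 1992 lower in ISX-9 than in DMSO members. With a pseudocount of 20 CPM the higher and lower counts were 322 and 453 for ISX-9 members, 508 and 478 for DMSO members, 812 and 676 for ISX-9 members against wells with both genes, 1679 and 1209 for DMSO members against such wells, and 574 and 395 for ISX-9 over DMSO members. At a minimum of 30 CPM, 701 were lower in ISX-9 members, 617 lower in DMSO members, 1005 and 1726 higher than in wells with both genes on the ISX-9 and the DMSO plate, and 780 higher and 650 lower in ISX-9 than in DMSO members, since fewer genes were then counted.

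Of 68 ratios of named genes with 768 values under the alternatives, 1 turned its direction, Otc in ISX-9 over DMSO members (1.42 at 5000 CPM of Neurog3). Of the 756 values of ratios past 2-fold, 743 stayed past it. These counts include Neurog3 and Tph1 on both plates, whose direction was fixed by the rule that chose members. A further 64 ratios, with 640 values, were of list genes in ISX-9 members over the other ISX-9 wells. DMSO ratios of list genes were not put through this full set of alternatives. Among the 640 values 1 turned, Isl1 in ISX-9 members (-0.65 without its top well). Of the 590 values of ratios past 2-fold, 547 stayed past it. The cause was not tested. Without the member with the most reads of the gene, ratios lay farther from 0 for Agr2 (-5.17), Ptprn (-4.85) and Ascl2 (-3.38) on the ISX-9 plate, for Tac1 (-5.25) and Reg4 (-6.13) on the DMSO plate and for Map1s (5.35) and Isl1 (-5.09) between the plates, and nearer to 0 for Cdkn1a (-3.61) and Ghrl (-5.98) between the plates. Depth limits the DMSO values, with 870865 reads in 21 members. Without the Ghrl-high members, which was chosen after seeing the data as was the next, 1221 genes were higher and 1731 lower in DMSO members than in the other wells; without the Lyz1-high member, 1172 were higher and 1273 lower, and 1535 and 1093 in ISX-9 over DMSO members. Without the Ghrl-high members the ratio of DMSO members over the other wells turned for Ghrl (-5.65) and Cdkn1a (-1.22), and without its top well alone for Ghrl (-0.42).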
